A study of Rattus norvegicus with 24 samples.

Results

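Hepatocytes make most of the protein of blood plasma, and 10 of these secreted proteins were followed here at the mRNA level in rat liver: albumin (Alb), fetuin-A (Ahsg), fetuin-B (Fetub), the precursor of alpha-1-microglobulin and bikunin (Ambp), transthyretin (Ttr), prothrombin (F2), clotting factor IX (F9), vitamin D-binding protein (Gc), alpha-1-antitrypsin (Serpina1) and thyroxine-binding globulin (Serpina7). The genes were taken by name: every probe of the array that carried one of these gene names, or the RefSeq record of one of these genes, was used. That gave 25 of the 21882 probes on the array, with 20 distinct sequences, for 10 of the 11565 genes tested. All 25 passed the filter on dim probes, and all 25 lay well above background in both dyes on all 24 arrays.

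The arrays hold liver RNA of 24 male F344 rats, an inbred strain, 5 weeks old per the labels, which were dosed once a day by gavage for 28 days. There were 4 rats per compound. The 4 compounds named as carcinogens were 1-amino-2-methylanthraquinone (150 mg/kg/day), hexachloroethane (500 mg/kg/day), 3-(4-chlorophenyl)-1,1-dimethylurea (250 mg/kg/day; this is the herbicide monuron) and 1,2,3-trichloropropane (50 mg/kg/day). The 2 named as non-carcinogens were the antibiotic tetracycline hydrochloride (1000 mg/kg/day) and 1,2-dichlorobenzene (300 mg/kg/day). Tetracycline hydrochloride was given in water, the others in corn oil, and the control rats received the vehicle alone, 5 ml per kg. Each array set the Cy3-labelled RNA of 1 treated rat against Cy5-labelled RNA pooled from 4 vehicle rats, and no array had the dyes swapped. Every value below is a log2 ratio of treated over vehicle unless another scale is named, so a value of -1 stands for a level at 50% of vehicle. The vehicle pool counts as 1 control sample, so its own spread between rats is left out of all tests.

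Plasma proteins of this kind are made on the rough endoplasmic reticulum of hepatocytes and secreted at once, without storage. Their genes are among the most active of the liver and are held on by liver transcription factors such as HNF4A and C/EBP alpha. Albumin sets the oncotic pressure of blood and carries fatty acids and drugs, and its mRNA and that of transthyretin and fetuin-A are known to fall in the acute phase response. Thyroxine-binding globulin, transthyretin and albumin together carry thyroid hormone in blood. In the rat, thyroxine-binding globulin is known as a protein of young and of hypothyroid animals, with little of it in the normal adult.

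The probes are 60-base oligonucleotides. The following are shown because the results for their genes turn on more than 1 probe, or because a probe pair gave unequal values. Capitals mark the 26 bases that the 2 Serpina1 probes have in common, so those probes are not independent measurements of that gene.
Serpina7 probe 702509: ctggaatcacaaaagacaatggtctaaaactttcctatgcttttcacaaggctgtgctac
Gc probe 702159: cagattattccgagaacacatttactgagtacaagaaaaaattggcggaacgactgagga
Fetub probe 705349: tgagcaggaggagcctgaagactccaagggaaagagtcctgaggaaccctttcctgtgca
Ambp probe 705992: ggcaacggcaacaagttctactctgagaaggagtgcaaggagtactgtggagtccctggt
Serpina1 probe 702323: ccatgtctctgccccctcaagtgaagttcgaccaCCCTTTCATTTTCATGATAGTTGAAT
Serpina1 probe 1487: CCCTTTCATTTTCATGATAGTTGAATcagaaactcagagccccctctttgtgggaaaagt
F9 probe 705800: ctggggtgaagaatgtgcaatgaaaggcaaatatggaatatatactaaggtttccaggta
F9 probe 5303: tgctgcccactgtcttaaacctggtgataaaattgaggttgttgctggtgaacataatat

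RefSeq promoters of the rat assembly GRCr8 were matched for 9 of the 10 genes, and the 250 bases before each annotated start were searched on both strands for short motifs of liver factors. TTGCNNAA, a C/EBP-type site, stood before 4 of the 9 (Alb, Ahsg, F9 and Serpina7) and in 9.22% of all 33469 promoters of that length. CAAAGTCCA, an HNF4-type site, was in 0 of the 9 windows and in 0.338% of all promoters. A match describes letters in a window and not a bound site.

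The scanner software marked 59.75 to 71.77% of probes per array as well above background for the treated RNA and 64.19 to 75.89% for the vehicle RNA. The 4 arrays of a compound shared 1 slide, which leaves slide and compound impossible to separate, and scan day separates the compounds except for hexachloroethane with tetracycline hydrochloride and monuron with 1,2-dichlorobenzene. A pair of arrays stood apart from their own group. Over all genes, hexachloroethane rat 1 correlated with the other 3 hexachloroethane rats at r = 0.523 to 0.565, while those 3 correlated with each other at 0.809 to 0.865. Tetracycline rat 4 correlated with the other 3 tetracycline rats at 0.379 to 0.491, against 0.612 to 0.739 among those 3. The values the authors deposited for monuron rat 1 and tetracycline rat 1 followed the scanner's ratios at r = 0.605 and 0.703, where the other 22 arrays were at 0.958 to 0.993, and several member probes read in both channels of those 2 arrays below the other 3 of their group. Without hexachloroethane rat 1 the count of lower members for that compound was 8, as with it, and without tetracycline rat 4 the count for tetracycline was 6, as with it.

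Of the 60 values, 10 genes under 6 compounds, 48 fell, 2 rose and 10 were not called at an adjusted p under 0.05 (limma, Benjamini-Hochberg over all genes of the comparison). Under hexachloroethane 8 of 10 members fell, and 0 rose, where 27.2% of all genes tested were lower and 22.6% higher. Under 1,2,3-trichloropropane 7 of 10 fell and 0 rose, beside 24.9% of all genes lower and 20.8% higher, and with the scanner's own log ratio 4 of 10 fell there and 1 rose. Under 1-amino-2-methylanthraquinone 9 fell and 1 rose, beside 31.1% of all genes lower and 27.6% higher. Monuron had 9 of 10 lower and 0 higher, beside 26.2% of all genes lower and 20.1% higher. With 1,2-dichlorobenzene 9 of 10 were lower and 0 higher as well, beside 26.5% and 25.1%. Tetracycline hydrochloride had 6 lower and 1 higher, beside 21.7% of all genes lower and 15.7% higher. The median over the 10 members lay between -0.30 under 1,2,3-trichloropropane and -0.68 under 1-amino-2-methylanthraquinone, where the median over all genes was between -0.02 and -0.01 for the 6 compounds. The changes were mostly small: 7 of the 60 values fell by at least 2-fold, in Serpina7, Ambp, Fetub and Serpina1, and 1 rose that much, in Serpina7. At that size, 1 member was lower under hexachloroethane (Serpina7, beside 0.502% of all genes), 1 under 1,2,3-trichloropropane (Serpina1, beside 0.64%), 1 under 1-amino-2-methylanthraquinone (Fetub, beside 0.873%), 1 under monuron (Ambp, beside 0.666%), 3 under 1,2-dichlorobenzene (Ambp, Fetub and Serpina1, beside 0.83%) and 0 under tetracycline hydrochloride (beside 0.13%). Higher at that size was Serpina7 under 1-amino-2-methylanthraquinone, beside 1.25% of all genes, and no member under hexachloroethane (0.527% of all genes), 1,2,3-trichloropropane (0.294%), monuron (0.735%), 1,2-dichlorobenzene (0.778%) or tetracycline hydrochloride (0.156%). In whole liver, fewer hepatocytes and less RNA per hepatocyte cannot be told apart.

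**Figure D1:**
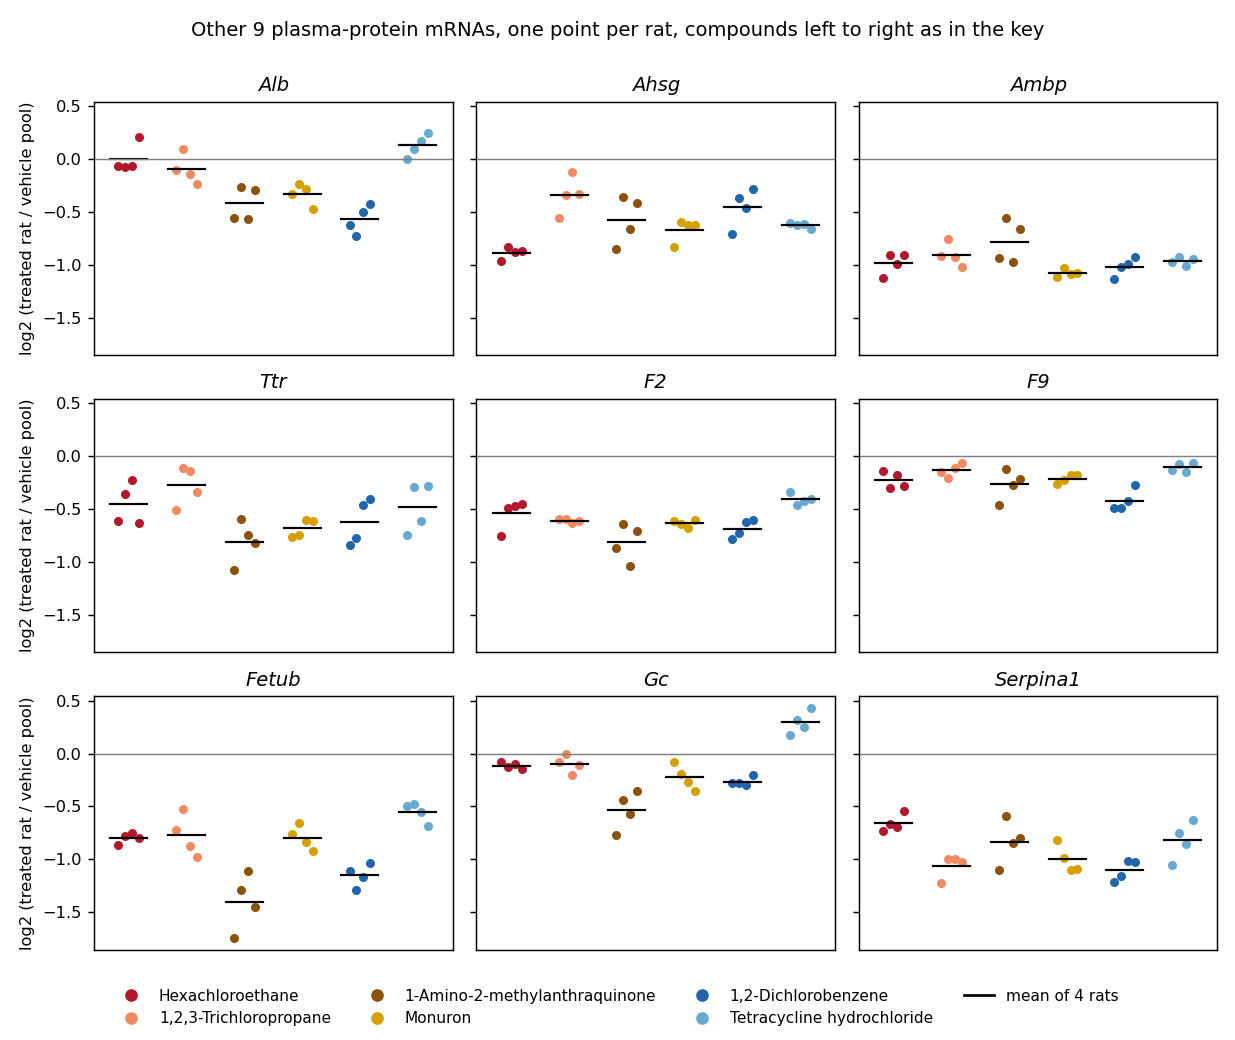
Log2 ratio of treated rat over vehicle pool (vertical axis) for the 9 members other than Serpina7, 1 panel per gene; each point is 1 rat, coloured by compound in the order of the key, and the bar is the mean of 4 rats. Ahsg, Ambp, Ttr, F2, F9, Fetub and Serpina1 lie below 0 in 24 of 24 rats, while Alb and Gc lie above 0 in all 4 tetracycline rats.

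Most of these decreases were in bright members, though F9, which was dim, fell under 5 compounds as well. Between probes of a bright member the order by brightness was mixed. The dimmer sequence averaged further below 0 over the 6 compounds for Alb, Gc and Ttr, and nearer 0 for Ahsg, Ambp, F2, Fetub and Serpina1. In 8 of the 10 members, all but F9 and Serpina7, the mean log2 signal of the 2 dyes was 16 or more, a level that 225 genes reached. Those 225 genes were lower in 47.6 to 63.6% of cases per compound and higher in 10.7 to 20%. Their median ratio lay between -0.34 and -0.17, so a downward shift was common among the brightest genes. Some vehicle spots of these probes also reached the ceiling of the scanner, namely 10 of 48 spots for Ambp, 6 of 48 for Serpina1, 5 of 48 for Fetub and 1 of 48 for Ttr, and 0 of the treated spots. The vehicle channel was the brighter one on all 24 arrays. With each array only centred on its median in place of loess, all 8 bright members and F9 were lower under all 6 compounds, the median over all genes moved to between -0.34 and -0.21, and the share of higher genes among all calls was 27.5 to 29.2% in place of 41.9 to 48.7%. The part of brightness in the decreases was not tested. A dye effect alike on all arrays cancels in differences between compounds, and these are given further below. A difference between vehicle pools, slides or scan days does not cancel in them.

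**Figure D2:**
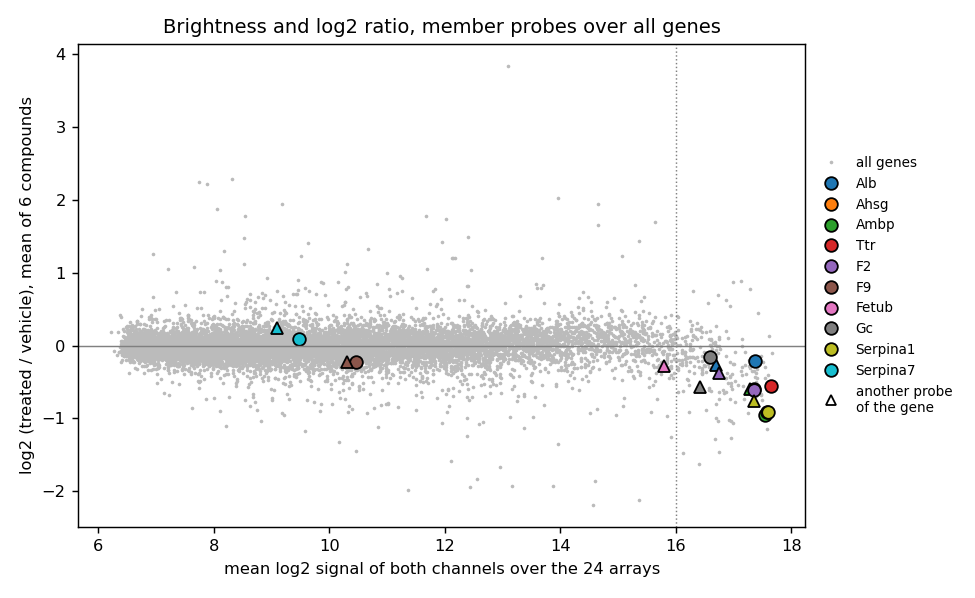
Mean log2 signal of both channels over the 24 arrays (horizontal axis) against the mean log2 ratio over the 6 compounds (vertical axis); grey points are all genes, circles the brightest probe of each member and triangles its other probes of distinct sequence. The dotted line marks a log2 signal of 16, right of which 8 of the 10 members lie among 225 genes.

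Serpina7 differed from the other 9 members in size and in direction. Hexachloroethane rats had log2 ratios of -2.73, -2.51, -2.17 and -1.53, a mean of -2.23 ± 0.52 (SD, n = 4; adjusted p = 1.96e-05). All 4 rats were below every rat of the other 5 compounds, and the mean stood for 21.2% of the vehicle level. Rats given 1-amino-2-methylanthraquinone had 2.87, 1.72, 0.57 and 2.51, a mean of 1.92 ± 1.02 (SD, n = 4; adjusted p = 7.38e-05), or 3.78-fold over vehicle. These 4 rats were all above 0, but the lowest of them overlapped with rats of 3 other compounds.

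The remaining 4 compounds gave no called change of Serpina7. Under 1,2,3-trichloropropane the rats had 0.10, -0.06, 0.49 and 1.15, and under 1,2-dichlorobenzene 0.41, 1.24, 0.29 and -0.25, both with a mean of 0.42. Monuron rats had -0.19, -0.42, -0.22 and -0.49, which is a narrow set with all 4 below 0 and a mean of -0.33 ± 0.15 (SD, n = 4; adjusted p = 0.456). The spread used in that test is shared by the 6 groups, and with the monuron arrays fitted alone the adjusted p was 0.00645. Tetracycline rats ran from -0.81 to 1.71, with values of 1.71, -0.81, 0.73 and -0.44, so rats of that group went in both directions. Without tetracycline rat 1 the mean of that group changed sign, to -0.17 from 0.30 with it. Without hexachloroethane rat 1, which stood apart over all genes, the Serpina7 mean under hexachloroethane was -2.07 (adjusted p = 0.000258).

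**Figure D3:**
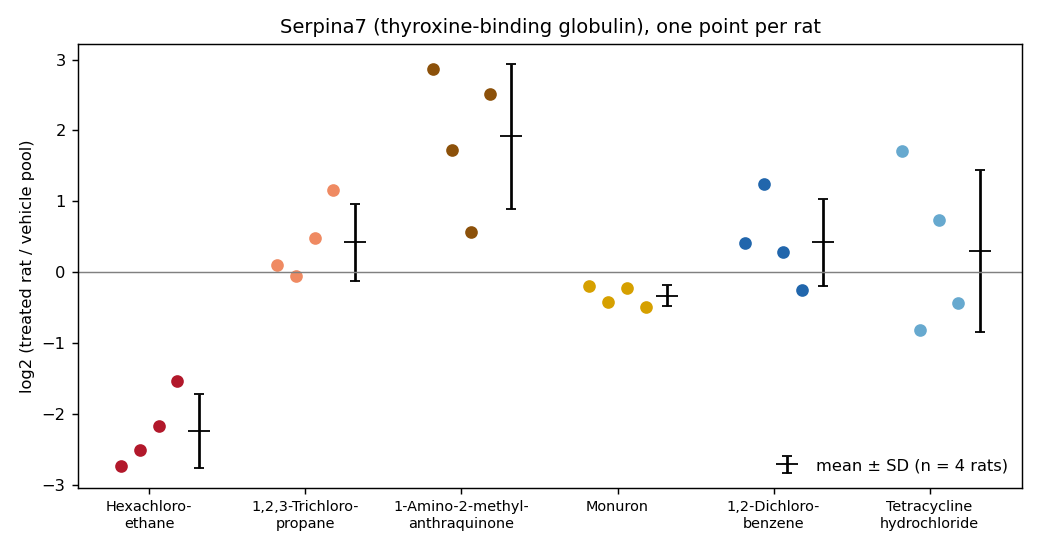
Log2 ratio of Serpina7 in each treated rat over the vehicle pool (vertical axis) by compound; points are rats and the cross gives the mean ± SD of 4 rats. All 4 hexachloroethane rats lie between -2.73 and -1.53, and the 4 rats given 1-amino-2-methylanthraquinone between 0.57 and 2.87.

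All 3 Serpina7 probes gave both calls. The probe of distinct sequence, 702509, printed above, gave -1.55 ± 0.42 under hexachloroethane and 1.72 ± 0.77 under 1-amino-2-methylanthraquinone (SD, n = 4 each), and the repeat of the main sequence gave -2.23 ± 0.51 and 1.86 ± 1.01. Set against the mean of the other 5 compounds, where a dye effect alike on all arrays cancels, Serpina7 was lower by -2.78 ± 0.38 under hexachloroethane (SE; adjusted p = 1.47e-05) and higher by 2.20 ± 0.38 under 1-amino-2-methylanthraquinone (SE; adjusted p = 6.6e-05). Between the pairs of compounds, 9 of the 15 differences of Serpina7 were called: the 5 of hexachloroethane against each other compound and the 4 of 1-amino-2-methylanthraquinone against the rest. In the order hexachloroethane, monuron, tetracycline hydrochloride, 1,2,3-trichloropropane, 1,2-dichlorobenzene and 1-amino-2-methylanthraquinone, from low to high, the 4 in the middle were not told apart. The largest of those middle differences, monuron minus 1,2-dichlorobenzene, was -0.75 with a 95% interval from -1.77 to 0.27. On the day scanned together, hexachloroethane against tetracycline hydrochloride gave -2.53 ± 0.49 (SE, adjusted p = 0.00094). These compounds were on different slides and had different vehicles, corn oil and water. Compound, slide and vehicle cannot be told apart in that difference. The scaled vehicle signal of Serpina7 was itself -0.83 for hexachloroethane and -1.55 for tetracycline hydrochloride.

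The vehicle side of the Serpina7 ratio was not alike for all compounds either. On the scale of each channel's signal net of background over that array's 75th percentile (log2), treated Serpina7 averaged 0.30, -1.02, -3.33, -1.30, -1.17 and -1.37 under 1-amino-2-methylanthraquinone, 1,2-dichlorobenzene, hexachloroethane, monuron, tetracycline hydrochloride and 1,2,3-trichloropropane, against -1.76, -1.55, -0.83, -1.05, -1.55 and -2.05 in the vehicle channel of the same arrays. The vehicle means thus spanned 1.22 and the treated means 3.63 (log2), while the 4 arrays of a compound repeated the vehicle value to within an SD of 0.06. Hexachloroethane arrays had both the lowest treated level and the highest vehicle level. The vehicle arrays of a compound share 1 pool and 1 slide, and whether the corn oil compounds shared a pool is not given, so pool, slide and scan day cannot be told apart in these vehicle differences.

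**Figure D4:**
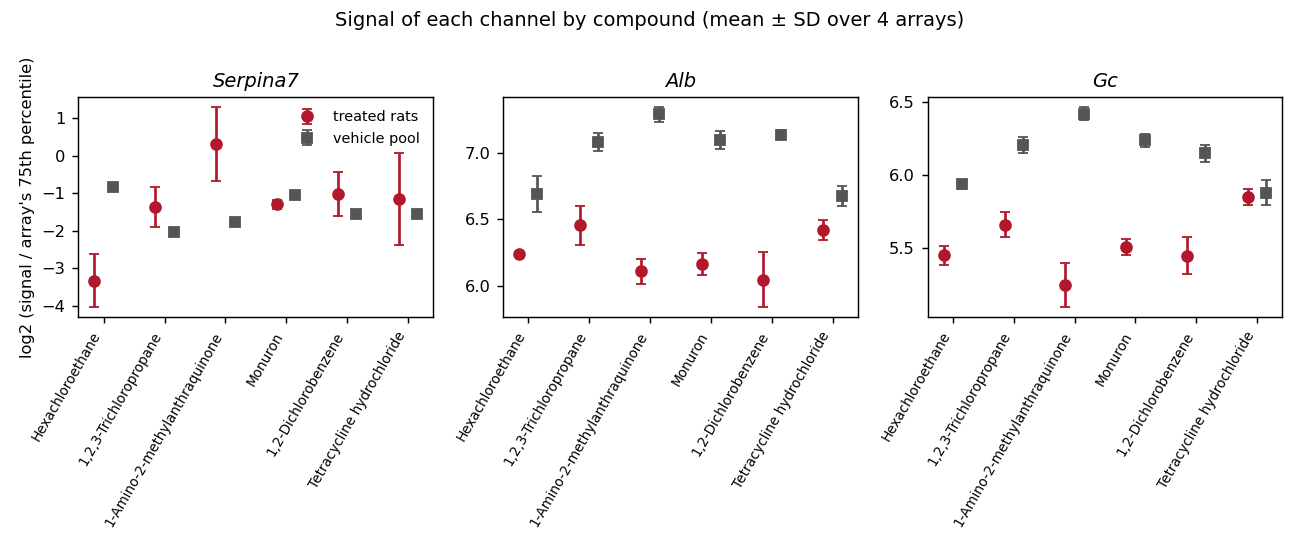
Signal of the treated channel (red circles) and the vehicle channel (grey squares) by compound for Serpina7, Alb and Gc, as log2 of signal over the array's 75th percentile in that channel, mean ± SD over 4 arrays, with a vertical scale of its own in each panel. Vehicle means span 1.22 for Serpina7, 0.62 for Alb and 0.54 for Gc.

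In the loess-scaled values albumin mRNA fell under 3 compounds and was not called under the other 3. Rats given 1-amino-2-methylanthraquinone had -0.56, -0.26, -0.57 and -0.29, a mean of -0.42 ± 0.16 (SD, n = 4; adjusted p = 1.04e-05), or 74.8% of vehicle. Monuron rats had -0.33, -0.24, -0.29 and -0.47, a mean of -0.33 ± 0.10 (adjusted p = 0.000283). The lowest set was that of 1,2-dichlorobenzene, with -0.62, -0.73, -0.50 and -0.42, a mean of -0.57 ± 0.14 (adjusted p = 2.78e-07), or 67.4% of vehicle. In these 3 groups every rat lay below 0 and below every rat given tetracycline hydrochloride, whose values were 0.00, 0.10, 0.17 and 0.25 (mean 0.13 ± 0.10, adjusted p = 0.12). Hexachloroethane rats had -0.07, -0.08, -0.06 and 0.21, a mean with no sign of its own, and 1,2,3-trichloropropane rats had -0.11, 0.10, -0.14 and -0.24 (mean -0.10 ± 0.14, adjusted p = 0.23). The other 2 albumin probes, 1 of them with the same sequence, gave the same 3 calls, with means between -0.64 and -0.31. Against the mean of the other 5 compounds, the main probe was called higher under hexachloroethane (0.26, adjusted p = 0.00751). Probe 702868 shared that call (0.27, adjusted p = 0.0076), and the same-sequence probe 13187 did not (0.22, adjusted p = 0.0521). Probe 702868 alone was called higher under 1,2,3-trichloropropane (0.24, adjusted p = 0.0165). The monuron call against vehicle was lost with the scanner's own log ratio (-0.0697, adjusted p = 0.413). It was also lost with the authors' deposited series table (-0.0773, adjusted p = 0.351), and it was kept with median centring in place of loess. Those same settings called Alb higher than vehicle under hexachloroethane (0.197 and 0.179), 1,2,3-trichloropropane (0.198 and 0.183) and tetracycline hydrochloride (0.339 and 0.347), with adjusted p from 0.000371 to 0.029.

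Vitamin D-binding protein belongs to the albumin family, and its gene lies on chromosome 14 with 11 annotated genes between it and Alb. Its main probe fell under 1-amino-2-methylanthraquinone, where the rats had -0.77, -0.44, -0.57 and -0.35, a mean of -0.53 ± 0.18 (SD, n = 4; adjusted p = 2.82e-08). It also fell under 1,2-dichlorobenzene, -0.27 ± 0.04 (adjusted p = 0.000239), and under monuron, -0.22 ± 0.11 (adjusted p = 0.00167). In tetracycline rats the main probe was higher than in vehicle, with 0.18, 0.32, 0.25 and 0.43, a mean of 0.29 ± 0.11 (adjusted p = 0.000159). Hexachloroethane (-0.11 ± 0.03) and 1,2,3-trichloropropane (-0.10 ± 0.08) gave no call. With the scanner's ratio and the series table, the Gc calls were lost under 1,2-dichlorobenzene (-0.0391 and -0.0426, adjusted p = 0.568 and 0.525) and under monuron (-0.0412 and -0.0529, adjusted p = 0.555 and 0.433).

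The probes for Gc disagreed, and the rise under tetracycline rests on 1 sequence. Probe 702159, printed above, gave -0.83, -0.41, -0.41 and -0.39 in tetracycline rats, a mean of -0.51 ± 0.21 (adjusted p = 2.16e-05), opposite in sign to the main probe, and -0.92 ± 0.04 in hexachloroethane rats (adjusted p = 3.59e-09), where the main probe gave no call. Nor was probe 702159 called for tetracycline relative to the other 5 (0.08, adjusted p = 0.473), where the main probe was at 0.54. It was called lower than the other 5 under hexachloroethane (-0.41, adjusted p = 0.000598) and higher under 1,2,3-trichloropropane (0.51, adjusted p = 0.000105), where the main probe had no call. The lower call for 1-amino-2-methylanthraquinone was shared by both sequences. The mean of the kept Gc probes was 0.02 under tetracycline (adjusted p = 0.79) and -0.37 under hexachloroethane (adjusted p = 1.39e-05). Under 1-amino-2-methylanthraquinone, monuron and 1,2-dichlorobenzene all Gc probes fell, 702159 by the larger amount, -0.99 ± 0.25, -0.48 ± 0.07 and -0.40 ± 0.16. Median centring in place of loess turned both tetracycline values negative, to -0.45 for Gc and -0.68 for Alb.

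For albumin and vitamin D-binding protein too, the vehicle channel differed between compounds. For Alb, scaled log2 signals in treated rats averaged 6.11, 6.04, 6.24, 6.16, 6.42 and 6.45 in the order of compounds used for these channel values of Serpina7, against 7.29, 7.14, 6.69, 7.10, 6.67 and 7.08 in the vehicle channel. The vehicle range, 0.62, was wider than the treated range, 0.41. Vehicle Alb and vehicle Gc were both lowest on the arrays of hexachloroethane and tetracycline hydrochloride, the compounds of scan day 1, at 5.94 and 5.88 for Gc against 6.15 to 6.42 for the other 4. For F9 the vehicle range was 0.63 beside a treated range of 0.77, and for Ahsg, Ambp, F2, Fetub, Serpina1 and Ttr it was 0.16 to 0.40 beside 0.27 to 0.87. How much of each ratio comes from the pool, the slide or the scan day was not tested.

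The fetuins, Ahsg and Fetub, lie side by side on chromosome 11 with 0 annotated genes between them. The ratios of their brightest probes had r = -0.12 over the 24 arrays and 0.13 within compounds. That value holds for the main Ahsg probe, and the other Ahsg sequence ordered the compounds differently. As with Fetub, its probe 13016 was lowest under 1-amino-2-methylanthraquinone (-0.63) and highest under tetracycline hydrochloride (-0.25). Fetuin-A, which binds calcium phosphate in blood and keeps it from precipitating, fell under all 6 compounds, from -0.89 ± 0.06 in hexachloroethane rats (adjusted p = 3.16e-09) to -0.34 ± 0.18 in 1,2,3-trichloropropane rats (adjusted p = 0.000645). With the scanner's ratio and the series table the calls were lost under 1,2,3-trichloropropane (-0.0536 and -0.0673, adjusted p = 0.542 and 0.402) and under 1,2-dichlorobenzene (-0.128 and -0.132, adjusted p = 0.121 and 0.0894). Against the mean of the other 5 it was lower under hexachloroethane, by -0.35 ± 0.08 (SE; adjusted p = 0.00154), and higher under 1,2,3-trichloropropane, by 0.31 ± 0.08 (adjusted p = 0.00505). The other 2 Ahsg probes share 1 sequence and put hexachloroethane at -0.53 and -0.51, neither of them different from the mean of the other compounds (adjusted p = 0.372 and 0.617). For 1,2,3-trichloropropane 1 copy was called higher than the other compounds (adjusted p = 0.0327) and 1 was not (0.101). Both copies were called lower under 1-amino-2-methylanthraquinone (-0.21 each) and higher under tetracycline hydrochloride (0.25 and 0.21), where the main probe had no call.

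Fetuin-B, an inhibitor of the egg protease ovastacin in mice, had the lowest single mean among the 8 bright members. Rats given 1-amino-2-methylanthraquinone had -1.74, -1.29, -1.11 and -1.45, a mean of -1.40 ± 0.27 (SD, n = 4; adjusted p = 3.95e-12), or 38% of vehicle. Rats given 1,2-dichlorobenzene had -1.11, -1.29, -1.16 and -1.04, a mean of -1.15 ± 0.11 (adjusted p = 1.36e-10). The first set reached lower, and the groups overlapped. Hexachloroethane, 1,2,3-trichloropropane and monuron gave means of -0.80, -0.77 and -0.79, and tetracycline hydrochloride the smallest decrease, -0.55 ± 0.10.

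Against the mean of the other 5 compounds, Fetub was lower under 1-amino-2-methylanthraquinone by -0.58 ± 0.08 (SE; adjusted p = 6.25e-06) and under 1,2-dichlorobenzene by -0.29 ± 0.08 (adjusted p = 0.0115), and higher under tetracycline hydrochloride by 0.43 ± 0.08 (adjusted p = 0.000503). The second Fetub probe, 705349, is dimmer (mean log2 signal 15.8 against 17.6) and gave values nearer 0, from -0.47 ± 0.12 under 1,2-dichlorobenzene to -0.14 ± 0.14 under tetracycline hydrochloride, the last of which was not called (adjusted p = 0.107). It put 1-amino-2-methylanthraquinone at -0.35 ± 0.25. Relative to the other 5 compounds this probe kept the call for 1,2-dichlorobenzene (-0.23, adjusted p = 0.0244) and gave none for 1-amino-2-methylanthraquinone (-0.08, adjusted p = 0.367) or tetracycline hydrochloride (0.17, adjusted p = 0.095). The order of those first 2 compounds, the 2-fold size and these 2 differences between compounds were seen on the brighter probe alone.

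Ambp and Serpina1 encode inhibitors of proteases: bikunin, cut from the Ambp product, inhibits trypsin-like proteases as part of the inter-alpha-trypsin inhibitors, and alpha-1-antitrypsin inhibits neutrophil elastase. Ambp was at -1.08 ± 0.04 in monuron rats (-1.12, -1.03, -1.09 and -1.08) and -1.02 ± 0.09 in 1,2-dichlorobenzene rats (-1.14, -1.02, -0.99 and -0.93), with means from -0.98 to -0.78 under the other 4 (SD, n = 4; highest adjusted p of the 6 = 2.14e-10). The groups overlapped, and 3 of the 15 pairs of compounds differed. Its other probe, 1992, gave means from -0.73 to -0.45. Against the mean of the other 5 compounds, Ambp was called for 1-amino-2-methylanthraquinone alone, where it was higher by 0.21 ± 0.06 (SE; adjusted p = 0.0073). Probe 1992, with 0 of 48 vehicle spots saturated, was on the other side of 0 for that compound (-0.15, adjusted p = 0.0502) and was called higher under tetracycline hydrochloride (0.18, adjusted p = 0.0338), so the difference between compounds was not shared by the probes.

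Serpina1 fell by at least 2-fold under 1,2,3-trichloropropane, with -1.22, -0.99, -0.99 and -1.03 (mean -1.06 ± 0.11, SD, n = 4; adjusted p = 3.13e-10), and under 1,2-dichlorobenzene, with -1.22, -1.16, -1.01 and -1.02 (mean -1.10 ± 0.10; adjusted p = 6.61e-11). Monuron rats followed at 50.04% of vehicle. The smallest decrease was that of hexachloroethane, -0.66 ± 0.08, where no rat reached the level of any 1,2,3-trichloropropane or 1,2-dichlorobenzene rat. Against the mean of the other 5 compounds Serpina1 was higher under hexachloroethane, by 0.31 ± 0.08 (SE; adjusted p = 0.00361), and lower under 1,2-dichlorobenzene, by -0.23 ± 0.08 (adjusted p = 0.0244). The overlapping probe 1487 kept both decreases under 1,2,3-trichloropropane and 1,2-dichlorobenzene, at -0.85 and -0.86, with neither at 2-fold. Relative to the other 5 compounds, probe 1487 gave no call for hexachloroethane (0.22, adjusted p = 0.169) or 1,2-dichlorobenzene (-0.11, adjusted p = 0.512).

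Transthyretin, the second thyroid hormone carrier and the partner of retinol-binding protein, fell under all 6 compounds. The means ran from -0.81 ± 0.20 in rats given 1-amino-2-methylanthraquinone (adjusted p = 2.05e-07) to -0.27 ± 0.18 in 1,2,3-trichloropropane rats (SD, n = 4; adjusted p = 0.0192). That last call was lost without 1,2,3-trichloropropane rat 1 (-0.20, adjusted p = 0.139) or rat 4 (-0.25, adjusted p = 0.0722), and the value was above 0 with the scanner's ratio (0.025) and the series table (0.0111). Against the mean of the other 5 compounds Ttr was lower under 1-amino-2-methylanthraquinone, by -0.31 ± 0.10 (SE; adjusted p = 0.0152), and higher under 1,2,3-trichloropropane, by 0.34 ± 0.10 (adjusted p = 0.0142). The other 2 Ttr probes share 1 sequence, and probe 11481 gave both of these calls while probe 1481 gave neither (adjusted p = 0.11 and 0.0889). Under 1-amino-2-methylanthraquinone, the 3 thyroid hormone carriers moved in both directions: Ttr and Alb fell by 0.81 and 0.42 on the log2 scale while Serpina7 rose by 1.92. Under hexachloroethane Serpina7 was at -2.23 and Ttr at -0.46, both called, and Alb was at 99.99% of vehicle, with rats on both sides of it.

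Of the clotting factors, F2 was bright and F9 dim. Prothrombin, the precursor of thrombin, was lower under all 6 compounds, from -0.81 ± 0.18 in 1-amino-2-methylanthraquinone rats (-0.86, -0.64, -1.04 and -0.70) to -0.41 ± 0.05 in tetracycline rats (-0.34, -0.46, -0.42 and -0.41; SD, n = 4; highest adjusted p of the 6 = 3.69e-06). These groups did not overlap. Against the mean of the other 5 compounds F2 was lower under 1-amino-2-methylanthraquinone by -0.24 ± 0.06 (SE; adjusted p = 0.00143) and higher under tetracycline hydrochloride by 0.25 ± 0.06 (adjusted p = 0.00189). The dimmer probe of the gene, 4136, gave -0.57 and -0.14 for the same 2 compounds against vehicle and shared both calls against the other 5. It was also called higher than the other 5 under hexachloroethane (0.20, adjusted p = 0.0106) and lower under 1,2-dichlorobenzene (-0.16, adjusted p = 0.0313). The main probe had no call for either.

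F9, the factor missing in haemophilia B, was measured at a mean log2 signal of 10.5, with 0 of 48 vehicle spots saturated, against 17.4 for F2. It was below 0 in 24 of 24 rats and fell in 5 of 6 compounds, the exception being tetracycline hydrochloride (-0.11 ± 0.04, adjusted p = 0.067). The largest decrease was that of 1,2-dichlorobenzene, -0.42 ± 0.10 (rats -0.49, -0.49, -0.43 and -0.27; SD, n = 4; adjusted p = 1.17e-07), or 74.8% of vehicle, and it was also lower than the mean of the other 5, by -0.23 ± 0.05 (SE; adjusted p = 0.00113). The second F9 probe, 5303, gave -0.49 ± 0.07 there, and no call under monuron (-0.08 ± 0.03, adjusted p = 0.223). Against the other 5 compounds it was called higher under monuron (0.18, adjusted p = 0.0265), where the main probe had no call. The call under 1,2,3-trichloropropane (-0.13 ± 0.06, adjusted p = 0.0199) was lost without rat 1 or rat 2 of that compound (adjusted p = 0.061 and 0.105).

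All 10 members varied among the 6 compounds by limma's F test (adjusted p from 3.64e-07 for Gc to 0.0261 for Ambp), as did 78.5% of all genes. Set against the mean of the other 5 compounds, 1-amino-2-methylanthraquinone had 5 members lower (Alb, F2, Fetub, Gc and Ttr) and 2 higher (Ambp and Serpina7), beside 24% of all genes lower and 24.4% higher. With 1,2-dichlorobenzene 4 were lower (Alb, F9, Fetub and Serpina1) and 0 higher, beside 13.8% and 17.3% of all genes. Tetracycline hydrochloride had 5 higher (Alb, F2, F9, Fetub and Gc) and 0 lower, beside 15.3% and 18.1%. Hexachloroethane had 2 lower (Ahsg and Serpina7) and 2 higher (Alb and Serpina1), beside 17.6% and 16.6%. Under 1,2,3-trichloropropane Ahsg and Ttr were higher and 0 were lower, beside 15.4% and 15.7%, and monuron had 0 of 10 called in limma, beside 11.8% of all genes lower and 10.9% higher. At an unadjusted p under 0.05, monuron had 1 member, Ambp, and 4114 of 11565 genes. These names are those of each gene's brightest probe, and the calls that its other probes did not share are given with each gene. Each of these comparisons uses all 24 arrays, so they are not independent of each other. A difference between vehicle pools, slides or scan days does not cancel in them. Under hexachloroethane the scaled treated signal of Alb was 6.24, beside 6.04 to 6.45 under the other 5 compounds. Its vehicle signal was 6.69, beside 6.67 to 7.29. Tetracycline hydrochloride alone was given in water, so compound and vehicle cannot be told apart in its differences from the others, pairs included.

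**Figure D5:**
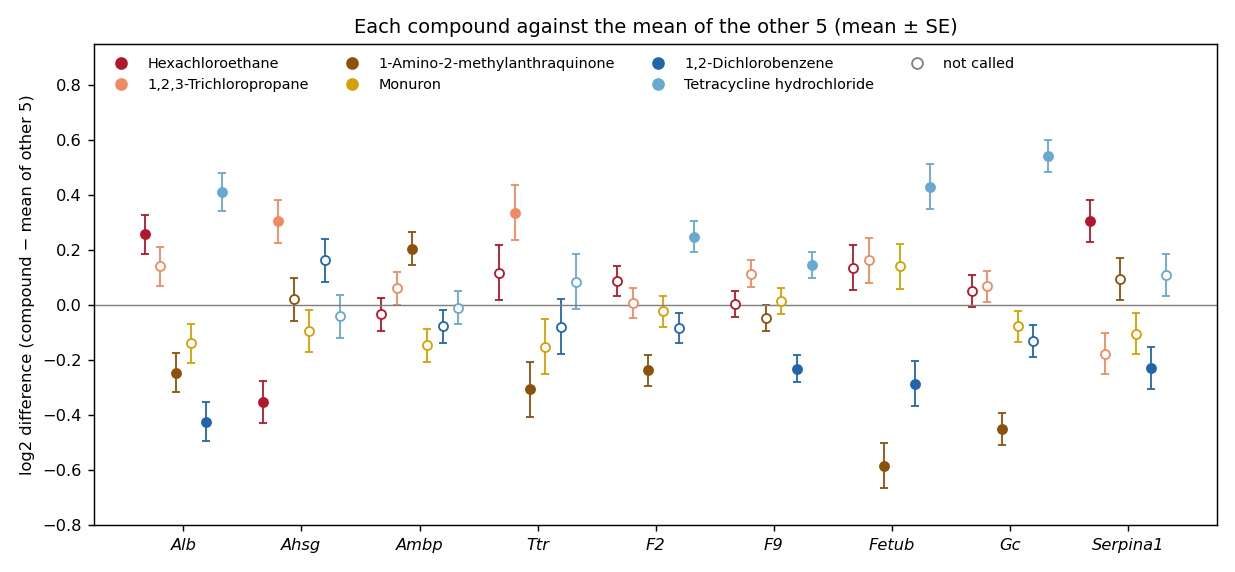
Log2 ratio of each compound minus the mean of the other 5 compounds (vertical axis), with its standard error, for the 9 members other than Serpina7; filled points were called at an adjusted p under 0.05 and open points were not. The highest points are tetracycline hydrochloride for Gc, Fetub and Alb (0.54, 0.43 and 0.41), and the lowest are 1-amino-2-methylanthraquinone for Fetub and Gc (-0.58 and -0.45).

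Among the 15 pairs of compounds, 62 of the 150 differences were called. The most were between hexachloroethane and 1-amino-2-methylanthraquinone, 8 of 10 members beside 43.5% of all genes, and between 1-amino-2-methylanthraquinone and tetracycline hydrochloride, 7 of 10 beside 43.4%. The other pairs with 1-amino-2-methylanthraquinone had 6 members called against 1,2,3-trichloropropane (44.2% of all genes), 4 against monuron (40.7%) and 4 against 1,2-dichlorobenzene (45.5%). Hexachloroethane had 6 called against 1,2-dichlorobenzene (34.7% of all genes), 3 against 1,2,3-trichloropropane (38.4%) and 3 against monuron (27.2%). Tetracycline hydrochloride had 6 called against 1,2-dichlorobenzene (37.4%), 3 against monuron (24.6%) and 3 against 1,2,3-trichloropropane (34%). Between 1,2,3-trichloropropane and 1,2-dichlorobenzene there were 3 (12.8%), and between 1,2,3-trichloropropane and monuron 2 (25.3%). The 2 pairs scanned on 1 day had 2 members called each. Hexachloroethane against tetracycline hydrochloride had Serpina7 and Gc called, beside 22.7% of all genes, with Gc lower by -0.41 ± 0.07 (SE; adjusted p = 0.000515). Monuron against 1,2-dichlorobenzene stood beside 24%, with F9 higher by 0.21 ± 0.06 (adjusted p = 0.0207) and Fetub higher by 0.36 ± 0.11 (adjusted p = 0.0183). The difference of Alb in that second pair, 0.24, had a 95% interval from 0.05 to 0.43 and an adjusted p of 0.0612.

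Between the study's own classes no member was called. With compound as the unit that carries the class, 0 of 10 members and 0 of 11565 genes were called between 4 carcinogens and 2 non-carcinogens (limma with duplicateCorrelation), and at an unadjusted p under 0.05 there were 0 members and 181 genes. Gc came nearest, at -0.24 for the carcinogens and 0.01 for the non-carcinogens, a difference of -0.26 ± 0.14 (SE; unadjusted p = 0.0826, adjusted p = 0.9999). Serpina7, whose extremes were both under carcinogens, had a class difference of -0.42 ± 0.88.

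Lists of other secreted liver proteins were read beside the 21.7 to 31.1% of all genes that were lower per compound. Of 24 listed clotting factors and inhibitors of clotting or fibrinolysis, 16 were measured, and between 8 (tetracycline hydrochloride) and 13 (1,2-dichlorobenzene) of the 16 fell, with medians from -0.34 to -0.10 and none at 2-fold in either direction. Of 24 measured carrier and inhibitor proteins of plasma, 15 to 20 fell and 0 to 3 rose per compound. Haptoglobin (Hp), which binds free haemoglobin, fell to -1.05 ± 0.15 under 1,2,3-trichloropropane and -1.23 ± 0.09 under 1,2-dichlorobenzene, and Itih4 to -1.03 ± 0.20 under 1,2-dichlorobenzene (SD, n = 4). Complement genes were lower in 17 of 19 measured under 1,2-dichlorobenzene (median -0.46, C3 at -1.02 ± 0.14), beside 6 to 10 of 19 under the other 5 compounds, of which 6 of 19 is near the share of all genes. Under 1-amino-2-methylanthraquinone 8 of the 19 complement genes fell and 4 rose, beside 31.1% and 27.6% of all genes. There 10 were higher than the mean of the other 5, beside 24.4% of all genes. Of the 19, 14 were lower under 1,2-dichlorobenzene than the mean of the other 5, and 0 were higher, beside 13.8% and 17.3%.

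The 17 measured liver transcription factors had medians between -0.16 and 0.05. Under 1,2,3-trichloropropane Foxa2 rose to 1.15 ± 0.50 while Onecut1 (-1.61 ± 1.2) and Cebpb (-1.01 ± 0.81) fell, and Onecut1 fell under 1-amino-2-methylanthraquinone (-1.67 ± 1.66, adjusted p = 0.0192), with spreads as wide as the changes (SD, n = 4). The 29 measured genes of the endoplasmic reticulum's secretory pathway, among them translocon, signal peptidase and chaperone genes, had medians between -0.04 and 0.08, with none at 2-fold. They moved in both directions. Under 1-amino-2-methylanthraquinone 9 rose and 12 fell, beside 27.6% of all genes higher and 31.1% lower. Under 1,2-dichlorobenzene 13 rose and 4 fell, beside 25.1% and 26.5%. Under the other 4 compounds 8 to 10 rose and 3 to 6 fell, beside 15.7 to 22.6% and 21.7 to 27.2%. Of 9 measured genes of endoplasmic reticulum stress, Asns, asparagine synthetase, rose by at least 2-fold under hexachloroethane (1.71 ± 0.81), 1,2,3-trichloropropane (1.30 ± 0.53), monuron (1.17 ± 0.16) and 1,2-dichlorobenzene (1.37 ± 0.28), and Xbp1 fell under 1-amino-2-methylanthraquinone (-1.10 ± 0.56). The list as a whole did not follow Asns, with medians from -0.20 to 0.07. Per compound, 0 to 4 of its 9 genes rose and 0 to 4 fell, beside 15.7 to 27.6% of all genes higher and 21.7 to 31.1% lower.

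Around Serpina7, 12 of 16 listed genes of thyroid hormone handling and response were measured. Ugt2b1, a glucuronosyltransferase, rose by at least 2-fold under 5 compounds, from 1.01 ± 0.29 in tetracycline rats to 2.44 ± 0.15 in hexachloroethane rats (SD, n = 4), the exception being 1-amino-2-methylanthraquinone. Me1, malic enzyme, a gene that thyroid hormone is known to raise in rat liver, rose under hexachloroethane (1.30 ± 0.37) and 1,2-dichlorobenzene (1.47 ± 0.17). Sult1c2 fell under hexachloroethane (-1.25 ± 0.19), and Slc16a10, a transporter of aromatic amino acids and thyroid hormone, fell under 1,2-dichlorobenzene (-1.07 ± 0.36). Under 1-amino-2-methylanthraquinone 4 of the 12 rose and 5 fell, beside 27.6% of all genes higher and 31.1% lower, with none at 2-fold. Under hexachloroethane 4 rose and 5 fell (median -0.19), beside 22.6% and 27.2% of all genes. With 1,2-dichlorobenzene 3 rose and 5 fell (median -0.10), beside 25.1% and 26.5%. Monuron had 5 higher and 2 lower (20.1% and 26.2%), tetracycline hydrochloride 4 and 3 (15.7% and 21.7%), and 1,2,3-trichloropropane 3 and 1 (20.8% and 24.9%). The list as a whole thus moved in both directions.

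Markers of other cells moved in some groups. Their counts stand beside 15.7 to 27.6% of all genes higher and 21.7 to 31.1% lower than vehicle per compound. Against the mean of the other 5 compounds, 10.9 to 24.4% of all genes were higher. Under 1-amino-2-methylanthraquinone 4 of 5 measured bile duct markers rose, Epcam by 2.11 ± 0.27, Spp1 by 1.73 ± 0.20 and Krt19 by 1.47 ± 0.35 (SD, n = 4), and the mean over the list was 0.99 to 1.42 in the 4 rats, against -0.25 to 0.43 in the rats of the other 5 compounds. Monuron rats had 3 of 3 measured red cell precursor genes higher (Hbb 1.64 ± 0.22, Alas2 1.13 ± 0.10 and Ahsp 1.05 ± 0.17). Of 9 macrophage markers 4 rose and 1 fell under monuron, with Marco, a macrophage receptor, at 1.07 ± 0.45. Under 1,2-dichlorobenzene 6 of 9 macrophage and 8 of 11 stellate cell and fibroblast markers were lower, with medians of -0.47 and -0.39. Under hexachloroethane 5 of the 11 stellate cell and fibroblast markers fell and 0 rose, with Lum, a fibroblast gene, at -1.11 ± 0.28. Under 1-amino-2-methylanthraquinone 5 of the 11 stellate cell and fibroblast markers rose and 1 fell, and 7 were higher than the mean of the other 5. Of 5 endothelial markers 4 rose under monuron, 3 of them above the mean of the other 5, and of 6 lymphocyte markers 4 fell under hexachloroethane and 3 rose under 1,2,3-trichloropropane, with no value of these 11 genes at 2-fold. Hepatocyte genes outside secretion fell in 6 to 11 of 16 measured, with medians from -0.36 to -0.14, and the ones at 2-fold were Tat under 1,2,3-trichloropropane (-2.21 ± 1.27), monuron (-1.31 ± 0.69) and 1,2-dichlorobenzene (-1.13 ± 0.68) and Bhmt under monuron (-1.09 ± 0.15). The part of these cell types in the members' ratios was not tested.

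Over the 24 arrays, each with vehicle RNA in 1 channel and a loess curve of its own, the ratios of Gc, Fetub, F2 and Alb ran together: Pearson's r was 0.83 for Fetub with Gc, 0.79 for F2 with Gc, 0.77 for Alb with Gc and 0.75 for Alb with F2. Within compounds the same pairs gave 0.41, 0.23, 0.57 and 0.50. Over the 24 arrays Serpina7 ran the other way from most members, with r from -0.56 (Fetub) to -0.19 (F9), apart from Ahsg (0.49) and Ambp (0.36). Within compounds it gave 0.02 with Ahsg, -0.06 with Ambp and 0.34 with F2, and from -0.61 (Ttr) to -0.18 (Alb) with the rest. All these r values are those of each gene's brightest probe. Of the genes with a symbol outside the 10, those most like a member were Atrn for Fetub (0.93), Apoh and F12 for F2 (0.91 and 0.85), C8b for Gc (0.90), Itih1 and Fn1 for Alb (0.89 and 0.88), Lipc for Ttr (0.88), Ctsc for Ahsg (0.86), Sez6 for F9 (0.86), Ahnak for Serpina1 (0.85), Itih3 for Serpina7 (0.84) and Ivns1abp for Ambp (0.81). These correlations describe 24 arrays in 6 groups, and the arrays of a group are not independent points.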

How the data were processed

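Per the file headers, the deposited scanner files hold mean signal and local background as intensity on a linear scale, and a log10 ratio of vehicle (Cy5) over treated (Cy3) by Agilent Feature Extraction 9.1.3.1. The authors' deposited series table holds 1 processed value per probe and array, which set against the scanner signals is a log2 ratio of treated over vehicle; how the authors scaled or centred it is not given in the sources used here (column medians -0.01 to 0.08). Per the labels' protocols, RNA was isolated with RNeasy kits, amplified and labelled.

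In R 4.3.3 with limma 3.58.1, signals were background corrected (normexp, offset 50) and scaled by loess within arrays, with control spots at weight 0. On the array of hexachloroethane rat 2, 12 spots lay on a bright patch (local background up to 47846 against a median of 297), and the normexp spread was 437 there, against 0.646 to 6.85 on the other 23 arrays. Spots over 200 above the array's median background were given that median and then left out, which brought the spread to 0.934. Outlier spots were left out, the 2 spots of a probe averaged, and signs turned to treated over vehicle.

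A probe was kept where all 4 arrays of some compound had it well above background in the same dye (16078 of 21882), and a gene was read from its brightest kept probe (11565 genes, 3618 with several probes, 4700 with a current symbol). One lmFit and eBayes model over 24 arrays gave each contrast with limma, and the classes were compared with compound as a random block (consensus correlation 0.593). Values of single probes come from the same fit over all kept probes. Genes were called at an adjusted p under 0.05. The steps were tested on simulated data. The number of arrays, 4 per compound, limits the precision.

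Members and lists were chosen with earlier results of these data known. All 10 members are named. By the rule, those called at 2-fold in any compound are given rat by rat (Serpina7, Ambp, Fetub and Serpina1), from each list up to 4 called genes at 2-fold per compound are named, and for likeness up to 3 genes per member. Rat values of Alb, Gc, F2 and F9 were added after they were seen. Promoters and gene order are RefSeq's for GRCr8. The closing section gives the effect of the alternatives.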

Additional observations from a re-analysis of the deposited data

Results flagged for a closer look

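In 4 of the 60 groups of 4 rats, 1 rat lay apart from the other 3, as measured by its gap to the nearest rat over the whole range (above Dixon's 95% limit for 4 samples), where chance alone marks about 1 group in 20. These were a high hexachloroethane rat for Alb (0.21 against -0.06 in the nearest rat, ratio 0.942), a low monuron rat for Ahsg (-0.83 against -0.63, ratio 0.865), a low hexachloroethane rat for F2 (-0.75 against -0.49, ratio 0.886) and a low 1,2,3-trichloropropane rat for Serpina1 (-1.22 against -1.03, ratio 0.857). The F2 value is that of hexachloroethane rat 1, the array that stood apart over all genes.

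The effect against vehicle differed among the 6 compounds for all 10 members in limma's F test, as it did for 78.5% of all genes. The adjusted p was 3.64e-07 for Gc, 5.78e-06 for Alb, 7.78e-06 for Fetub, 1.29e-05 for Serpina7, 0.00108 for F2, 0.00116 for Ahsg, 0.00193 for F9, 0.00228 for Serpina1, 0.0118 for Ttr and 0.0261 for Ambp.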

How the results depend on the processing

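Each result was recomputed under other settings, 1 choice at a time. With a change of at least 2-fold required as well, the members lower than vehicle numbered 1 under hexachloroethane, 1 under 1,2,3-trichloropropane, 1 under 1-amino-2-methylanthraquinone, 1 under monuron, 3 under 1,2-dichlorobenzene and 0 under tetracycline hydrochloride. With the scanner's own log ratio, 4 members were lower under 1,2,3-trichloropropane, 7 under monuron and 7 under 1,2-dichlorobenzene, against 5, 7 and 7 with the authors' series table and 7, 9 and 9 as reported. With either, 1 member was higher under hexachloroethane, 1 under 1,2,3-trichloropropane and 2 under tetracycline hydrochloride. The calls lost with no change of sign numbered 6 and 5 of the 60, namely Alb and Gc under monuron, Ahsg and Gc under 1,2-dichlorobenzene and Ahsg under 1,2,3-trichloropropane, and F9 under 1,2,3-trichloropropane (-0.112, adjusted p = 0.0781) with the scanner's ratio alone. With the scanner's ratio 5 values turned positive, to 0.197 for Alb and 0.0167 for Gc under hexachloroethane and to 0.198 for Alb, 0.0987 for Gc and 0.025 for Ttr under 1,2,3-trichloropropane. The authors' series table turned the same 5 values, to 0.179 for Alb and 0.00116 for Gc under hexachloroethane and to 0.183 for Alb, 0.0856 for Gc and 0.0111 for Ttr under 1,2,3-trichloropropane. Median centring turned Alb (-0.676) and Gc (-0.448) negative under tetracycline hydrochloride. Alb under hexachloroethane, at -0.0002 in the fit reported, was 0.00315 without background correction, 0.00506 with the bright patch included and -0.0697 to 0.0258 with 1 rat left out, and under 1,2,3-trichloropropane it was 0.00372 without background correction. Serpina7 under tetracycline hydrochloride was -0.172 to 0.667 with 1 rat left out, the lowest without rat 1. The cause of these changes was not tested.

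Members called against the mean of the other 5 compounds changed more. The count for 1,2,3-trichloropropane was 4 without background correction and 4 with the mean of a gene's probes. For monuron it was 1 with median centring, 1 without background correction and 1 with the replicate block, and for tetracycline hydrochloride it was 8 with median centring. Within a scan day, 2 members were called for hexachloroethane against tetracycline hydrochloride and 2 for monuron against 1,2-dichlorobenzene. Leaving out 1 replicate number gave 0 to 3 for 1,2,3-trichloropropane, 0 to 1 for monuron and 2 to 5 for 1,2-dichlorobenzene. Replicate numbers did not pair the rats: the median correlation of deviations between same-numbered arrays was 0.04, 22 of 60 pairs exceeded 0.1, and 8 of 24 arrays correlated best with their own number. The replicate block changed no other count of members.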
